A study of Mus musculus with 16 samples.

Results

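Genes of the phagocyte NADPH oxidase and of superoxide handling were followed in footpad RNA of 2 mouse lines, AIRmax and AIRmin, which were selected in opposite directions for the size of their inflammatory response. The set held 9 of the 19938 genes measured: Cybb, Cyba, Ncf1, Ncf4 and Rac2 of the oxidase, and Sod1, Sod2, Sod3 and Cat, which remove superoxide or hydrogen peroxide. Members were chosen by gene symbol, and each was read by exactly 1 probe set of the Affymetrix Mouse Gene 1.0 ST array. The question was whether these genes differed with pristane within each line, and between the lines with and without it.

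The 16 arrays formed 4 groups of 4, each with 2 males and 2 females of an outbred stock. The labels give an age of 2 to 4 months in all 4 groups and do not say to which day it refers, so it may be the age at the start. AIRmax pristane footpads came from the line labelled as high in inflammation, at day 160, from mice given the mineral oil pristane, which induces arthritis in susceptible mice (2 intraperitoneal injections of 0.5 ml, 60 days apart). AIRmax control footpads came from the same line at day 0. AIRmin pristane footpads, at day 160, and AIRmin control footpads, at day 0, came from the line labelled as low in inflammation. Treatment and time therefore went together in both lines and cannot be told apart. The days were counted from the second injection in the study's methods, and the labels call the day 0 mice controls without giving their injections. A footpad is a mixture of skin, muscle, fat, bone, marrow and blood cells, so that fewer cells of a type and less RNA per cell cannot be told apart. The arrays were numbered in group order, so array order and group cannot be told apart either. The keratin genes Krt10 and Krt1 gave log2 signals of 10.82 to 13.07 on the 16 arrays, as a check of the labelled tissue, and Xist (9.07 to 10.09 in females and 3.45 to 4.32 in males) matched the labelled sex on all of them.

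The phagocyte oxidase moves electrons from NADPH across a membrane onto oxygen and so makes superoxide. It is assembled on demand in neutrophils and macrophages: Cybb and Cyba encode the membrane pair, Ncf1 and Ncf4 encode subunits that arrive from the cytosol, and Rac2 encodes the GTPase of blood cells that joins them. Superoxide dismutases turn superoxide into hydrogen peroxide in the cytosol (Sod1), the mitochondrion (Sod2) and the extracellular matrix (Sod3), and catalase (Cat) breaks the peroxide down. In rats, natural variation in Ncf1 is known to alter the severity of pristane-induced arthritis.

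On GRCm38.p6, Cybb lies on chromosome X (9435252 to 9487766), Cyba on chromosome 8 (122424771 to 122432940) and Ncf1 on chromosome 5 (134220053 to 134229628). Ncf4 (78244164 to 78262582) and Rac2 (78559169 to 78572783) lie close together on chromosome 15. Sod1 lies on chromosome 16 (90220762 to 90226333), Sod2 on chromosome 17 (13007839 to 13018119), Sod3 on chromosome 5 (52363804 to 52369738) and Cat on chromosome 2 (103453904 to 103485153).

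RefSeq promoter windows on GRCm38.p6, the 250 bases before the start of transcription, were held for 6 of the 9 members. Those of Cybb, Cyba and Ncf1 are printed because these oxidase genes followed each other from array to array, and those of Sod2 and Cat because their AIRmax groups did not overlap. The windows lie at chrX:9469325-9469574 (minus strand, inside the annotated span of Cybb), chr8:122432941-122433190 (Cyba, minus), chr5:134229626-134229875 (Ncf1, minus), chr17:13007589-13007838 (Sod2, plus) and chr2:103485154-103485403 (Cat, minus). Capitals mark GAGGAA, a core of sites for the myeloid factor PU.1, and GGGCGG, a core of Sp1 sites, each read on both strands.
Cybb: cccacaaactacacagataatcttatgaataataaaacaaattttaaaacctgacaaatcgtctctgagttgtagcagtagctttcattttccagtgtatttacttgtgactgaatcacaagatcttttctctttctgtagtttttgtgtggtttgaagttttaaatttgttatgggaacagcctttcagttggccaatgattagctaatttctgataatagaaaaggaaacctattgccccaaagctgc
Cyba: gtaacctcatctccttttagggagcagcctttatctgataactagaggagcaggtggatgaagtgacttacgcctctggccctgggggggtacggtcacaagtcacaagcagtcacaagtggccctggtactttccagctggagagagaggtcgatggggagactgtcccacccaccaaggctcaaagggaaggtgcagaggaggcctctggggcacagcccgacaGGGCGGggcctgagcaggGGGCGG
Ncf1: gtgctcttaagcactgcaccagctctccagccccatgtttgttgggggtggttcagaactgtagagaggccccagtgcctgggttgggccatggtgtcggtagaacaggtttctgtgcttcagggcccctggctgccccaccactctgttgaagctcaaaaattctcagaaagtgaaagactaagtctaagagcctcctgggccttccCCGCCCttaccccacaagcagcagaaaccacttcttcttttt
Sod2: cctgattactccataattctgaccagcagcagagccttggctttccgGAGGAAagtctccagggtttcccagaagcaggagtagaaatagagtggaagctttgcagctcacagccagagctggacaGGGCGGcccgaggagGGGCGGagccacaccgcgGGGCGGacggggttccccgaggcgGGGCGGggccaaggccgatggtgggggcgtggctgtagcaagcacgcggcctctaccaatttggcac
Cat: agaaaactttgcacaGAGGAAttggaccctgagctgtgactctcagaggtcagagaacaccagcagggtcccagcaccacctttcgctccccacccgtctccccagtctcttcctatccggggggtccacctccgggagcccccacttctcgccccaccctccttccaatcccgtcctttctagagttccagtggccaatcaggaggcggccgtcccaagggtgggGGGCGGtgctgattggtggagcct
Among 32851 promoter windows of this length, 23.3% held GAGGAA and 32.7% held GGGCGG. The Cybb window held neither, and its only match among the motifs searched was a CCAAT box 56 to 52 bases before the start (CCAAT was in 33.8% of windows). Cyba held 2 matches to GGGCGG, Ncf1 held 1 on the opposite strand, and neither held GAGGAA. Sod2 held 4 matches to GGGCGG and 1 to GAGGAA, and Cat held 1 of each with 4 CCAAT boxes, one of which (230 to 226 bases before the start, opposite strand) shares a base with the GAGGAA match. The antioxidant response core TGACNNNGC, present in 10.2% of windows, was matched in the window of Sod1 and in none of the 5 printed here. Only these exact letters were searched, so a window without GAGGAA may still hold a PU.1 site written otherwise. These matches describe letters in a window and were not tested for binding.

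**Figure D1:**
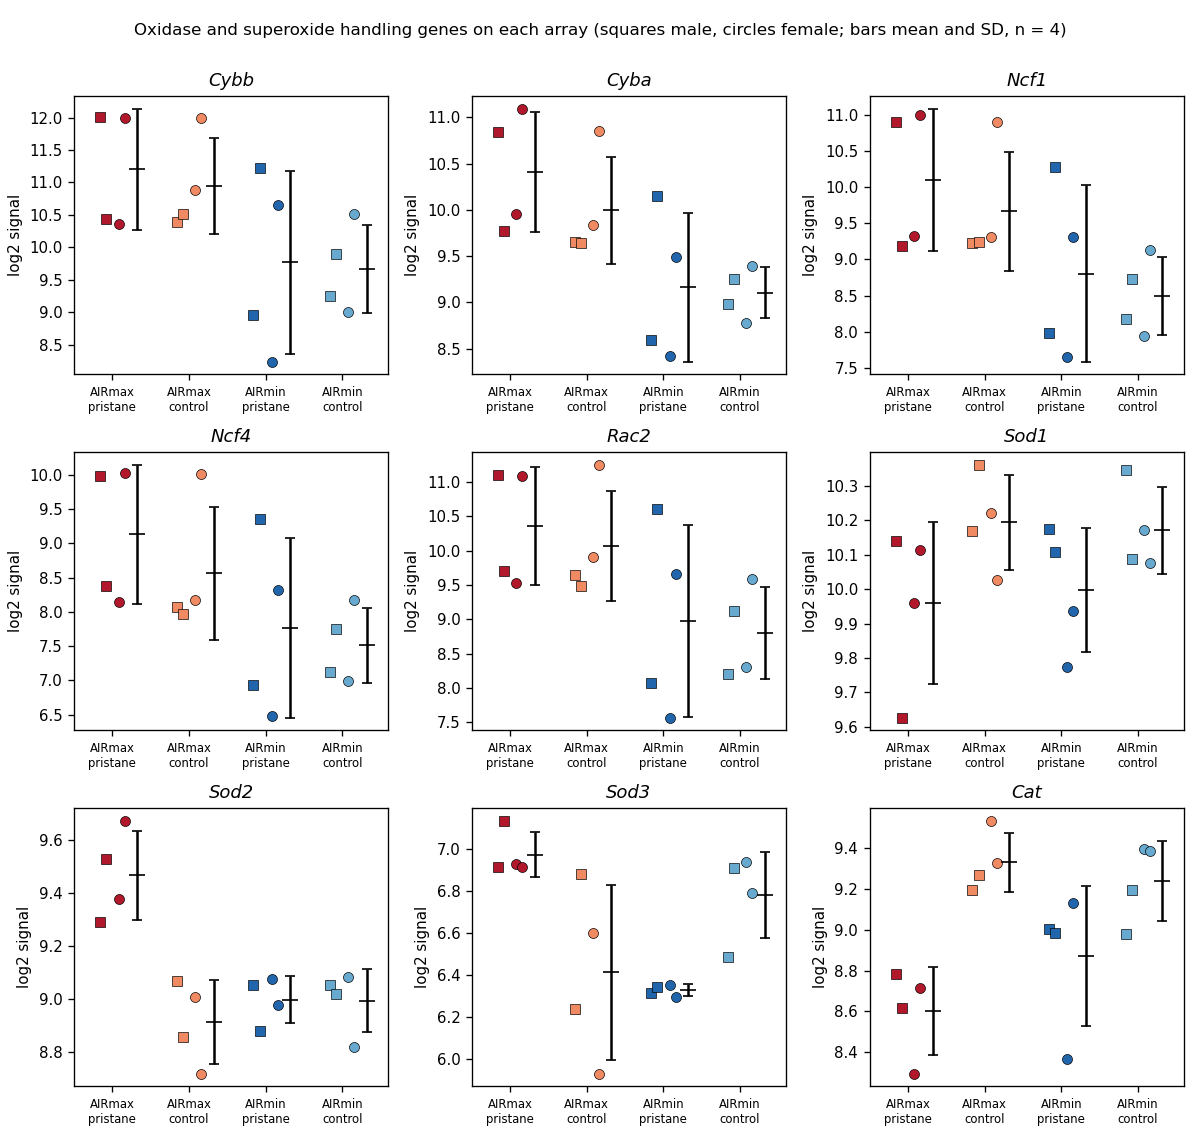
Log2 signal of each of the 9 genes (y axis) on every array, by group (x axis), with squares for males, circles for females and bars for the mean and SD of 4 arrays. The 5 oxidase genes share 4 high arrays (2 AIRmax pristane, 1 AIRmax control and 1 AIRmin pristane), whereas Sod2 stands high on all 4 AIRmax pristane arrays (9.29 to 9.67) and Sod3 separates the AIRmax pristane arrays (6.91 to 7.13) from the AIRmin pristane arrays (6.29 to 6.35).

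The 5 oxidase genes differed more between mice of a group than between pristane and control mice. Cybb, the catalytic subunit, had log2 signals of 12.02, 10.43, 10.36 and 11.998 in AIRmax pristane footpads, against 10.39, 10.51, 10.88 and 12.001 in AIRmax control footpads. In AIRmin it had 8.95, 11.23, 8.24 and 10.65 in pristane footpads and 9.25, 9.90, 9.0004 and 10.51 in control footpads. Both pristane groups overlapped their controls, with 2 high arrays of 4 in AIRmax pristane, 1 of 4 in AIRmax control and 1 in AIRmin pristane. The log2 fold change of Cybb with pristane was 0.25 (standard error 0.49, 95% interval -0.85 to 1.36) in AIRmax and 0.10 (standard error 0.62, interval -1.28 to 1.49) in AIRmin. Neither passed limma with Benjamini-Hochberg adjustment over all genes (adjusted p = 0.845 in AIRmax and 0.968 in AIRmin).

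Cyba, the membrane partner without which Cybb protein is unstable, gave 10.84, 9.77, 9.95 and 11.09 in AIRmax pristane footpads, against 9.65, 9.64, 9.84 and 10.85 in AIRmax control footpads. In AIRmin pristane footpads Cyba gave 8.60, 10.15, 8.43 and 9.49, against 8.98, 9.26, 8.78 and 9.40 in AIRmin control footpads. Its highest 2 AIRmax pristane arrays were the same mice that were high for Cybb, and the other 2 lay among the controls. The log2 fold change of Cyba was 0.42 (standard error 0.36, adjusted p = 0.629) in AIRmax and 0.06 (standard error 0.34, adjusted p = 0.967) in AIRmin.

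Ncf1, which organises assembly of the oxidase at the membrane, gave 10.89, 9.19, 9.32 and 10.9995 in AIRmax pristane footpads, against 9.22, 9.24, 9.30 and 10.90 in AIRmax control footpads. In AIRmin pristane footpads it gave 7.99, 10.28, 7.64 and 9.30, against 8.18, 8.73, 7.94 and 9.13 in AIRmin control footpads. The first 3 AIRmax control arrays lay between 9.22 and 9.30, and the other one was as high as the high pristane arrays. Ncf4, a cytosolic adaptor that binds a membrane lipid, gave 9.98, 8.38, 8.14 and 10.03 in AIRmax pristane footpads and 8.08, 7.97, 8.18 and 10.02 in AIRmax control footpads. In AIRmin Ncf4 gave 6.93, 9.35, 6.49 and 8.31 in pristane footpads and 7.13, 7.74, 6.996 and 8.18 in control footpads. Its high arrays were those of Ncf1. The pristane log2 fold changes in AIRmax were 0.43 (standard error 0.53) for Ncf1 and 0.57 (standard error 0.58) for Ncf4, and in AIRmin 0.31 (standard error 0.53) for Ncf1 and 0.26 (standard error 0.56) for Ncf4, with adjusted p from 0.686 to 0.897.

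Rac2 gave 11.11, 9.71, 9.53 and 11.09 in AIRmax pristane footpads, against 9.64, 9.49, 9.91 and 11.25 in AIRmax control footpads. In AIRmin Rac2 gave 8.07, 10.61, 7.57 and 9.65 in pristane footpads and 8.20, 9.11, 8.30 and 9.59 in control footpads. Its single highest array of all 16 was a control. The log2 fold change was 0.28 (standard error 0.49, adjusted p = 0.824) in AIRmax and 0.17 (standard error 0.62, adjusted p = 0.944) in AIRmin.

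All 5 oxidase genes had the same 4 highest arrays, namely AIRmax pristane 109 and 112, AIRmax control 108 and AIRmin pristane 118, and all 5 were lowest on AIRmin pristane array 119. On the 4 high arrays Ncf1 lay between 10.28 and 10.9995, against 7.64 to 9.32 on the other 12. The 4 mice were 2 males and 2 females of 3 groups. None of the 4 scavenging genes had these as its highest arrays. Over the 16 arrays the oxidase genes spanned 2.66 to 3.78 log2 units, against 0.74 to 1.24 for the scavenging genes, and the SD within a group was 0.28 to 1.40 for the oxidase genes and 0.03 to 0.42 for the others.

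The same 4 arrays were the highest for a score of 6 granulocyte precursor genes (Elane, Mpo, Prtn3, Ctsg, Ms4a3 and Fcnb) and for a score of 12 mature neutrophil genes, where a score is the mean log2 deviation of the listed genes from their own means over 16 arrays. The precursor score was 2.30 on array 108, 2.29 on 109, 2.23 on 112 and 1.58 on 118, and the next array, AIRmin pristane 120, had 0.38. It ranged from -0.63 to 2.29 in AIRmax pristane, 0.01 to 2.30 in AIRmax control, -1.97 to 1.58 in AIRmin pristane and -2.52 to -0.11 in AIRmin control footpads. The mature neutrophil score ranged from -0.23 to 1.84 in AIRmax pristane, 0.23 to 1.77 in AIRmax control, -2.24 to 1.14 in AIRmin pristane and -2.58 to 0.24 in AIRmin control footpads. None of the 6 precursor genes or the 12 neutrophil genes passed the test with pristane in either line. Mpo, the precursor gene with the highest mean signal, averaged 10.44 ± 1.38 in AIRmax pristane and 10.44 ± 0.85 in AIRmax control footpads (SD, n = 4 each), and 9.35 ± 1.67 in AIRmin pristane and 8.48 ± 1.22 in AIRmin control footpads.

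With the precursor score as a covariate, the AIRmin pristane log2 fold changes of the oxidase genes were negative, from -0.67 for Cybb (adjusted p = 0.0394) to -0.35 for Ncf1 (adjusted p = 0.18). In AIRmax with this covariate they were positive, from 0.16 for Cybb (adjusted p = 0.399) to 0.46 for Ncf4 (adjusted p = 0.0887), and none passed. In AIRmin 1114 of all 19938 genes passed with this covariate, against 0 without it. Without the 4 high arrays the AIRmin values of all 5 oxidase genes were negative, at -0.38 for Cybb and -0.18 for Ncf1, and neither of these passed. The 4 arrays were picked on these same values. Array 118 was the only one of the 4 in that comparison, and the highest AIRmin pristane array for all 5. Leaving it out could only lower the pristane means. In AIRmax without arrays 108, 109 and 112 Cybb was at -0.20, Cyba at 0.15, Ncf1 at -0.004, Ncf4 at 0.18 and Rac2 at -0.06, again without passing.

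**Figure D2:**
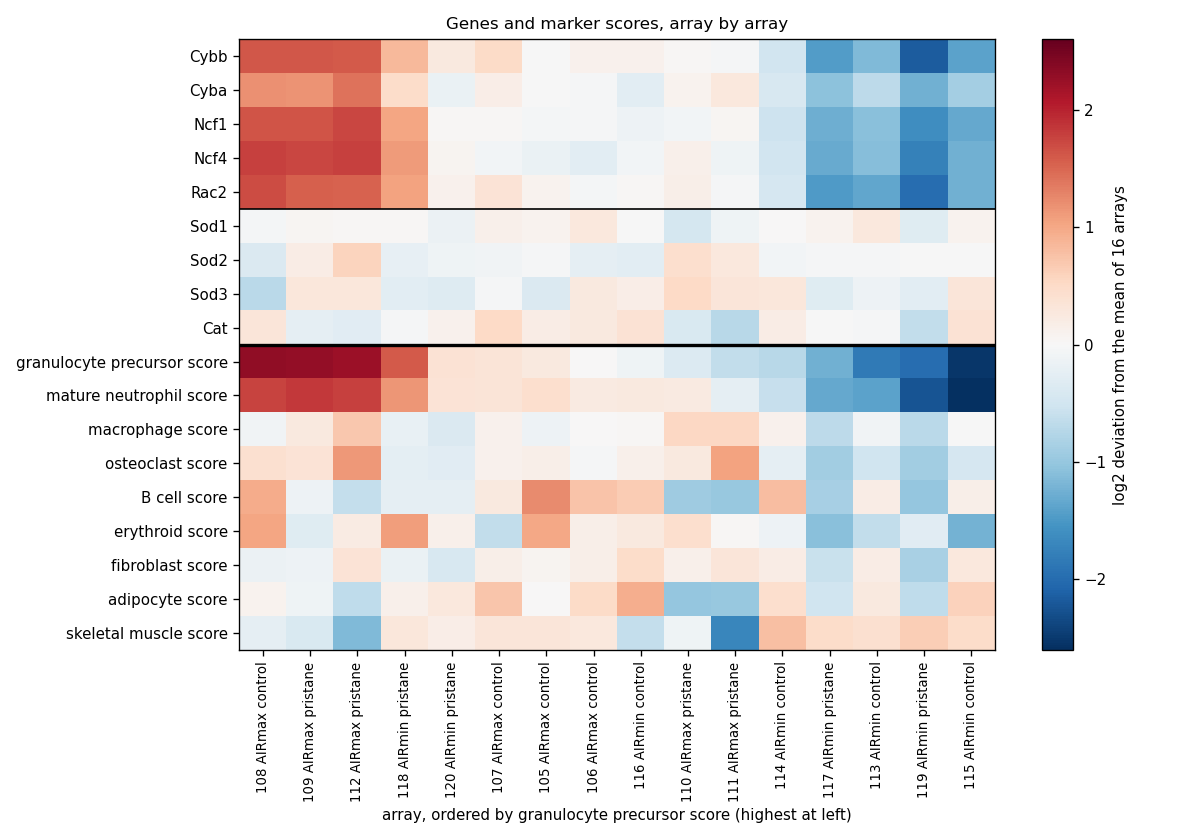
Log2 deviation of each gene and each marker score (rows) from its mean over 16 arrays, with the arrays (columns) ordered by the granulocyte precursor score from the highest at the left. The 5 oxidase rows and the 2 granulocyte rows are red on the same 4 arrays (108, 109, 112 and 118), and the rows of Sod1, Sod2, Sod3 and Cat are not.

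The genes whose values ran most like those of Cybb over the 16 arrays were Rac2 (Pearson r = 0.993, Spearman rho = 0.947), Arhgap4 (r = 0.989), Lcp1 (r = 0.988), Selplg (r = 0.987) and Coro1a (r = 0.987). Ncf1 (r = 0.981), Ncf4 (r = 0.976) and Cyba (r = 0.968) ranked 11, 17 and 44 among all genes. Cybb and Sod3 had r = 0.03, and Cybb and Cat had r = 0.13. These are descriptions over arrays that share their group structure, and no p was computed.

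Sod2, the mitochondrial dismutase, was high on every AIRmax pristane array. It gave 9.29, 9.53, 9.37 and 9.67 in AIRmax pristane footpads, against 9.07, 8.86, 9.01 and 8.72 in AIRmax control footpads. In AIRmin it gave 9.05, 8.88, 9.08 and 8.98 in pristane footpads, against 9.05, 9.02, 9.08 and 8.82 in control footpads. All 4 AIRmax pristane arrays lay above the other 12, while the AIRmin groups overlapped fully. Means were 9.47 ± 0.17 in AIRmax pristane, 8.91 ± 0.16 in AIRmax control, 8.997 ± 0.09 in AIRmin pristane and 8.99 ± 0.12 in AIRmin control footpads (SD, n = 4). Both sexes showed it, with means of 9.41 in males and 9.52 in females given pristane, against 8.96 in males and 8.86 in females of the AIRmax controls. The log2 fold change in AIRmax was 0.55 (standard error 0.12, 95% interval 0.28 to 0.82) and did not pass the adjustment over all genes (adjusted p = 0.0988). In AIRmin it was 0.00 (interval -0.21 to 0.21, adjusted p = 0.992).

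Cat, which removes hydrogen peroxide in peroxisomes, was low with pristane in AIRmax. It gave 8.78, 8.62, 8.29 and 8.71 in AIRmax pristane footpads, against 9.19, 9.27, 9.53 and 9.33 in AIRmax control footpads. In AIRmin it gave 9.01, 8.98, 8.37 and 9.13 in pristane footpads, against 8.98, 9.19, 9.40 and 9.38 in control footpads. The AIRmax groups did not overlap, and the AIRmin groups did, with array 119 the lowest. The log2 fold change was -0.73 (standard error 0.13, 95% interval -1.02 to -0.44, adjusted p = 0.065) in AIRmax and -0.37 (standard error 0.17, interval -0.75 to 0.02, adjusted p = 0.427) in AIRmin. The difference of these responses was -0.36 (standard error 0.22, adjusted p = 0.733), so a difference between the lines in Cat was not shown.

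Sod3, the dismutase secreted into the matrix, ran in opposite directions in the lines. It gave 6.91, 7.13, 6.93 and 6.91 in AIRmax pristane footpads, against 6.24, 6.88, 6.60 and 5.93 in AIRmax control footpads. In AIRmin it gave 6.31, 6.34, 6.35 and 6.29 in pristane footpads, against 6.48, 6.91, 6.94 and 6.79 in control footpads. AIRmax pristane lay above its controls, narrowly at the closest pair (6.91 and 6.88), and AIRmin pristane lay below its controls. Means were 6.97 ± 0.11 in AIRmax pristane, 6.41 ± 0.42 in AIRmax control, 6.33 ± 0.03 in AIRmin pristane and 6.78 ± 0.21 in AIRmin control footpads (SD, n = 4). The log2 fold change was 0.56 (standard error 0.19, adjusted p = 0.24) in AIRmax and -0.45 (standard error 0.11, adjusted p = 0.131) in AIRmin. The pristane difference was 1.02 greater in AIRmax than in AIRmin (standard error 0.23, 95% interval 0.53 to 1.496, unadjusted p = 0.000406), which did not pass over all genes (adjusted p = 0.0871 from limma).

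Sod1, the cytosolic dismutase, gave 10.14, 9.63, 9.96 and 10.11 in AIRmax pristane footpads, against 10.17, 10.36, 10.22 and 10.03 in AIRmax control footpads. In AIRmin it gave 10.17, 10.11, 9.77 and 9.94 in pristane footpads and 10.35, 10.09, 10.17 and 10.08 in control footpads. The groups overlapped in both lines. Log2 fold changes were -0.23 (interval -0.54 to 0.07) in AIRmax and -0.17 (interval -0.43 to 0.08) in AIRmin, with adjusted p of 0.448 and 0.586.

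With pristane in AIRmax, 0 of the 9 genes passed limma, where 0.281% of all genes passed in either direction. At an unadjusted p under 0.05, 3 passed (Sod2, Sod3 and Cat), where 14.4% of all genes did. Groups did not overlap for 2 of 9 genes that were higher with pristane (Sod2 and Sod3), where 5.09% of all genes did so, and for 1 that was lower (Cat), where 4.3% did. SAM, the permutation test of the study, called Sod2 higher and Cat lower at a false discovery rate of 0.05, among 744 genes in all. The median log2 fold change was 0.42 for the 5 oxidase genes and 0.16 for the 4 scavenging genes, beside 0.03 over all 19938 genes.

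With pristane in AIRmin, 0 of the 9 genes passed limma, as did 0% of all genes, for which the smallest adjusted p was 0.0513. At an unadjusted p under 0.05, 1 of 9 passed (Sod3), where 12.4% of all genes did. Sod3 was also the only member whose groups did not overlap, among 4.32% of all genes that were lower without overlap and 3.19% that were higher. SAM called Sod3 lower among 399 genes. The median was 0.17 for the oxidase genes and -0.27 for the scavenging genes, beside 0.02 over all genes.

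Sod3 was the only member that passed between the lines after pristane. Over the 16 arrays the median of all gene means was 6.15 and Ncf4 had a mean of 8.24. Sod3 had the lowest mean of the 9 members, 6.62, and no detection call was used. AIRmax pristane footpads had 6.97 ± 0.11 and AIRmin pristane footpads 6.33 ± 0.03 (SD, n = 4 each), a log2 fold change of 0.65 (standard error 0.09, 95% interval 0.44 to 0.85, adjusted p = 0.0204 from limma). It was thus 1 of 9 genes called, where 1.36% of all genes passed in either direction, 0.853% as higher and 0.507% as lower in AIRmax. At an unadjusted p under 0.05 there were 3 of 9 (Cyba, Sod2 and Sod3), where 18.8% of all genes passed. Sod2 was 0.47 higher in AIRmax pristane than in AIRmin pristane footpads (standard error 0.11, interval 0.22 to 0.72) and did not pass (adjusted p = 0.0734). These 2 genes did not overlap between the lines, where 5.04% of all genes were higher and 5.81% lower in AIRmax without overlap, and SAM called both among 1004 genes. Sod3 no longer passed when any of arrays 112, 117, 119 or 120 was left out (adjusted p = 0.0581, 0.0888, 0.0553 and 0.0657), or without the 4 high arrays (log2 fold change 0.71, adjusted p = 0.0809), or with the muscle marker score as a covariate (log2 fold change 0.76, adjusted p = 0.683). Its log2 fold change was 0.59 to 0.67 over the fits without 1 array, and with the muscle covariate 2 genes in all passed, against 271 without it. The muscle score did not overlap between the pristane lines (-1.69 to -0.12 in AIRmax and 0.18 to 0.64 in AIRmin). That fit therefore could not separate muscle score from line.

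The oxidase genes had larger mean differences between the pristane lines than Sod3, and wider errors. Log2 fold changes of AIRmax pristane over AIRmin pristane footpads were 1.43 for Cybb (standard error 0.68), 1.25 for Cyba (0.42), 1.30 for Ncf1 (0.63), 1.36 for Ncf4 (0.67) and 1.38 for Rac2 (0.67). Adjusted p ran from 0.161 for Cyba to 0.312 for Ncf4, and the groups overlapped for all 5. Intervals reached from 0.29 to 2.20 for Cyba and from -0.10 to 2.97 for Cybb. Without AIRmin pristane array 119, on which all 5 were lowest, the values were 0.92 for Cybb, 1.0025 for Cyba, 0.91 for Ncf1, 0.94 for Ncf4 and 0.91 for Rac2. Cat was at -0.27 (interval -0.68 to 0.14) and Sod1 at -0.04 (interval -0.36 to 0.29).

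The oxidase genes also had higher means in AIRmax than in AIRmin controls. AIRmax control over AIRmin control log2 fold changes were 1.28 for Cybb (standard error 0.41), 0.89 for Cyba (0.26), 1.17 for Ncf1 (0.40), 1.05 for Ncf4 (0.45) and 1.27 for Rac2 (0.42). Of the 9 genes 0 passed the adjustment, where 0.0802% of all genes did (0.0502% higher and 0.0301% lower in AIRmax), with adjusted p from 0.207 to 0.286 for the oxidase genes. All 5 oxidase genes had an unadjusted p under 0.05, where 16.8% of all genes did. Cyba and Ncf1 did not overlap between the control lines, where 5.39% of all genes were higher and 4.94% lower in AIRmax without overlap. Without AIRmax control array 108 the values were 0.93 for Cybb, 0.61 for Cyba, 0.76 for Ncf1, 0.56 for Ncf4 and 0.88 for Rac2. The median over the oxidase genes was 1.17 with all arrays, beside -0.03 over all genes.

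The granulocyte precursor score averaged 0.73 ± 1.06 in AIRmax control and -1.30 ± 1.09 in AIRmin control footpads (SD, n = 4 each). Of its 6 genes 5 were higher in AIRmax controls without overlap, where 5.39% of all genes were. With this score as a covariate the log2 fold changes between the control lines were -0.02 for Cybb, 0.09 for Cyba, -0.10 for Ncf1, -0.37 for Ncf4 and -0.07 for Rac2. The adjusted p from limma ran from 0.952 to 0.998 in that fit. The score did not overlap between the control lines (0.01 to 2.30 in AIRmax and -2.52 to -0.11 in AIRmin). The fit therefore could not separate score from line, and no conclusion is drawn from it. The macrophage score (12 genes) was near equal, at -0.02 ± 0.11 in AIRmax control and 0.01 ± 0.09 in AIRmin control footpads. The part of either cell type in the oxidase difference was not tested. Among the scavenging genes the control lines differed by 0.02 in Sod1 (interval -0.20 to 0.25), -0.08 in Sod2 (-0.31 to 0.15), -0.37 in Sod3 (-0.81 to 0.07) and 0.09 in Cat (-0.17 to 0.36).

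**Figure D3:**
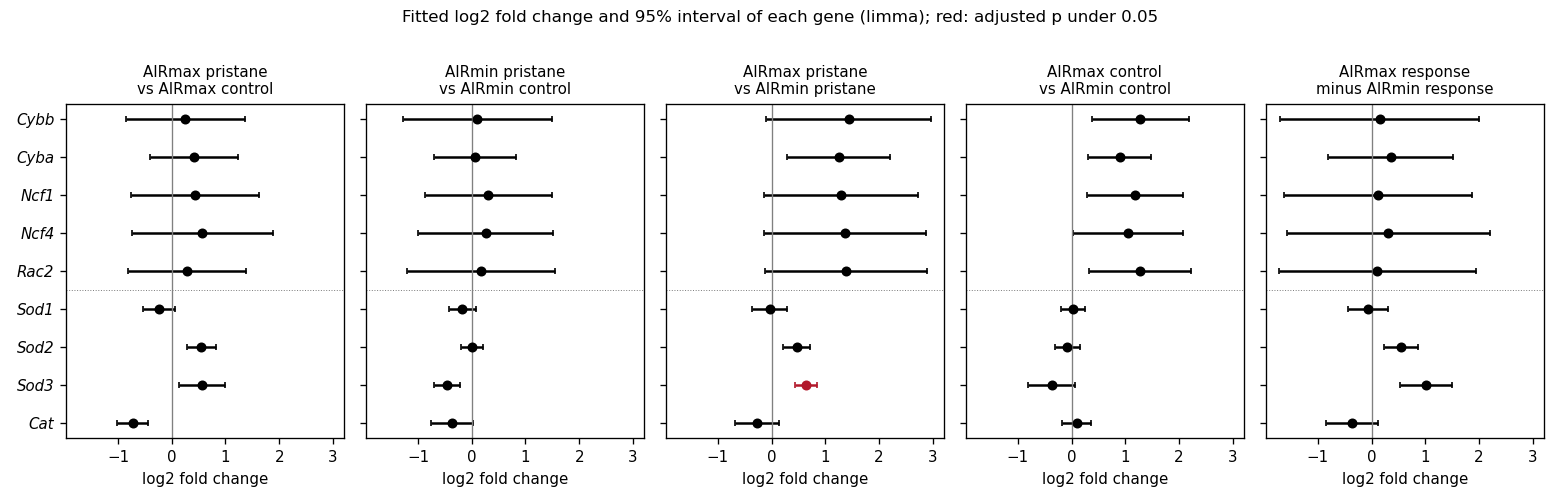
Fitted log2 fold change (x axis) and 95% interval of the 9 genes in the 5 comparisons, with red for adjusted p under 0.05. Intervals of the oxidase genes are wide in every comparison, and Sod3 between the pristane lines (0.65) is the only red point.

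For the difference of the responses, AIRmax minus AIRmin, 0 of 9 genes passed, where 0.171% of all genes did. At an unadjusted p under 0.05 there were 2, Sod3 and Sod2, where 8.21% of all genes passed. Sod2 gave 0.55 (standard error 0.15, 95% interval 0.24 to 0.86, adjusted p = 0.186). The oxidase genes gave 0.11 to 0.36, with standard errors of 0.54 to 0.89 and adjusted p of 0.937 or more, and Sod1 gave -0.06 (interval -0.43 to 0.31).

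Marker scores of other cell types also differed between groups, and their part in the results for the scavenging genes was not tested. The macrophage score ranged from 0.26 to 0.69 in AIRmax pristane, -0.13 to 0.11 in AIRmax control, -0.71 to -0.19 in AIRmin pristane and -0.10 to 0.11 in AIRmin control footpads. Its 4 highest arrays were the 4 AIRmax pristane arrays, which were also the 4 highest for Sod2. In AIRmin the score was lower with pristane without overlap, whereas Sod2 had a log2 fold change of 0.00. Of the 12 macrophage genes 3 passed as higher with pristane in AIRmax, where 0.14% of all genes did. These were Cd68 (0.81, adjusted p = 0.0308), Cd14 (1.58, adjusted p = 0.0492) and Msr1 (1.82, adjusted p = 0.0098). Others were lower without passing, namely Cd163 (-0.50), Mrc1 (-0.32), Mertk (-0.04) and Csf1r (-0.01), and the median of the 12 was 0.53. In AIRmin 0 passed, as for all genes. There 6 of the 12 were lower without overlap, where 4.32% of all genes were. For C1qa, the macrophage gene with the highest mean signal, the log2 signal was 10.43 ± 0.33 in AIRmax pristane and 9.92 ± 0.17 in AIRmax control footpads, and 9.47 ± 0.31 in AIRmin pristane and 10.05 ± 0.19 in AIRmin control footpads. Between the pristane lines, where Sod3 passed and Sod2 did not overlap, 5 of the 12 macrophage genes passed as higher in AIRmax and 8 did not overlap. Of all genes 0.853% passed as higher there and 5.04% were higher without overlap. On a log2 array scale none of the markers has a true 0.

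The osteoclast score (7 genes) ranged from 0.26 to 1.12 in AIRmax pristane, -0.04 to 0.42 in AIRmax control, -0.91 to -0.25 in AIRmin pristane and -0.51 to 0.12 in AIRmin control footpads. Between the pristane lines 3 of its 7 genes passed as higher in AIRmax and 6 did not overlap, beside 0.853% and 5.04% of all genes. For Ctsk, the protease of bone resorption, the log2 fold change was 1.89 (adjusted p = 0.0491). The B cell score (6 genes) ranged from -0.99 to -0.14 in AIRmax pristane, 0.26 to 1.24 in AIRmax control, -1.0 to -0.23 in AIRmin pristane and 0.14 to 0.81 in AIRmin control footpads. In each line 5 of the 6 B cell genes were lower with pristane without overlap. Of all genes 4.3% were so in AIRmax and 4.32% in AIRmin. Neither Cat nor Sod3 did this in both lines. Cat was lower without overlap in AIRmax, and its AIRmin groups overlapped. Sod3 was lower without overlap in AIRmin but higher without overlap in AIRmax. In AIRmax 1 of the 6 B cell genes passed (Fcmr, -1.72, adjusted p = 0.019), where 0.14% of all genes passed as lower. In AIRmin 0 passed, as for all genes.

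The fibroblast score (8 genes) ranged from -0.14 to 0.36 in AIRmax pristane, -0.16 to 0.15 in AIRmax control, -0.84 to -0.18 in AIRmin pristane and 0.18 to 0.48 in AIRmin control footpads. It was lowest in AIRmin pristane footpads, where Sod3 averaged 6.33. Sod3 averaged 6.41 in AIRmax control footpads and had its lowest array there (5.93), but the fibroblast score of that group averaged 0.05. Between the pristane lines 2 of the 8 fibroblast genes passed as higher in AIRmax, where 0.853% of all genes did. These were Col3a1 (1.74, adjusted p = 0.0139) and Lum (1.20, adjusted p = 0.0431). The 6 that did not pass ran from -0.42 for Dpt to 1.42 for Col1a1 (adjusted p = 0.0614). Dcn, the fibroblast gene with the highest mean signal, was at -0.01. The genes whose values ran most like those of Sod3 over the 16 arrays were Fbln2 (r = 0.855, rho = 0.794), Srprb (r = 0.853), Fstl1 (r = 0.842), Dusp3 (r = 0.841) and Sh3pxd2b (r = 0.817). Fbln2 encodes a matrix protein and Fstl1 a secreted glycoprotein of connective tissue. Sod2 ranked 415 in likeness to Sod3 (r = 0.595).

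The adipocyte score (7 genes) ranged from -1.01 to -0.12 in AIRmax pristane, 0.01 to 0.71 in AIRmax control, -0.65 to 0.27 in AIRmin pristane and 0.25 to 0.94 in AIRmin control footpads. It was thus lower without overlap in AIRmax pristane footpads, where Cat was lower too. The skeletal muscle score (12 genes) ranged from -1.69 to -0.12 in AIRmax pristane, -0.23 to 0.32 in AIRmax control, 0.18 to 0.64 in AIRmin pristane and -0.61 to 0.79 in AIRmin control footpads. With the muscle score as a covariate the AIRmax log2 fold change of Cat was -0.54 and that of Sod2 0.60, both with an adjusted p of 0.801. In that fit 1 gene in all passed, against 56 without the covariate.

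The calls on Sod2 and Cat in AIRmax differed between the fits. With all 16 arrays in 1 fit, Sod2 (adjusted p = 0.014) and Cat (adjusted p = 0.032) both passed, at the same fold changes. With the granulocyte precursor score as a covariate they passed as well (adjusted p = 0.0475 for Sod2 and 0.0181 for Cat). Over all genes 338 passed with all 16 arrays and 473 with this covariate, against 56 as reported. With a trended robust prior 0 members passed. Leaving out each array in turn gave 0.48 to 0.61 for Sod2 (adjusted p of 0.0879 to 0.262) and -0.79 to -0.63 for Cat (adjusted p of 0.0597 to 0.191), with no change of direction.

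**Figure D4:**
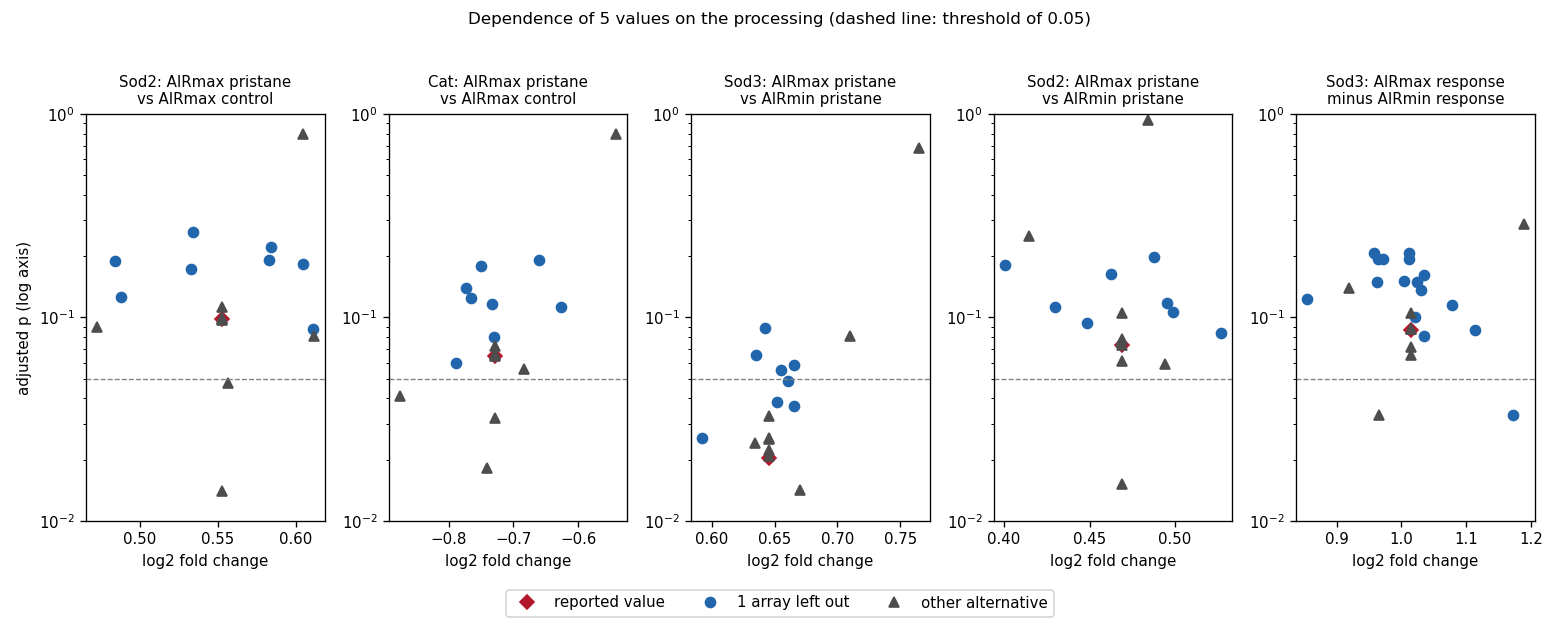
Adjusted p (y axis, log scale) against log2 fold change (x axis) of 5 values under each alternative, with the reported value as a diamond, fits without 1 array as circles and other alternatives as triangles (standardised arrays have another unit and are left out). The directions hold in every fit shown, whereas points of each value lie on both sides of the dashed threshold of 0.05. For Sod2 between the pristane lines only the fit of all 16 arrays (adjusted p = 0.0151) lies below it.

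Among other oxidase subunits and their partners 12 of 13 listed genes were measured, and 0 passed in any of the 5 comparisons. Rac1, the GTPase found in all tissues, gave log2 signals of 10.48 ± 0.12 in AIRmax pristane and 10.51 ± 0.07 in AIRmax control footpads, and 10.24 ± 0.07 in AIRmin pristane and 10.28 ± 0.11 in AIRmin control footpads (SD, n = 4). It was higher in AIRmax without overlap both with pristane (0.24, adjusted p = 0.232) and in controls (0.23, adjusted p = 0.236). Duox1, a hydrogen peroxide-producing oxidase of epithelia, and its maturation factor Duoxa1 had the opposite sign to the phagocyte genes between the pristane lines (-1.14, adjusted p = 0.156, and -1.28, adjusted p = 0.0956). Noxo1, the organiser of the epithelial oxidase Nox1, was lower without overlap in AIRmax controls than in AIRmin controls (-0.32, adjusted p = 0.21). Its means there, 5.06 in AIRmax and 5.38 in AIRmin, lay below the lowest array median (5.435). No detection call was used, so its expression was not established.

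Of 12 listed regulators of the phagocyte oxidase 9 were measured and 0 passed, with a median log2 fold change of 0.99 between the pristane lines and 0.78 between the control lines. Fgr, a Src-family kinase of myeloid cells, averaged 8.64 ± 0.65 in AIRmax pristane and 7.79 ± 0.79 in AIRmax control footpads, and 6.94 ± 0.93 in AIRmin pristane and 6.64 ± 0.45 in AIRmin control footpads. Between the pristane lines Fgr differed by 1.69 (adjusted p = 0.102), Vav1, an exchange factor for Rac, by 1.44 (adjusted p = 0.126) and Syk, a kinase that relays receptor signals, by 1.09 (adjusted p = 0.111). Fgr, Vav1 and Hvcn1, the proton channel that balances the oxidase's charge, were among the 5 of 9 regulators that were higher in AIRmax controls without overlap, where 5.39% of all genes were.

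Of 25 listed genes of peroxide and thiol defence 23 were measured and 0 passed, with medians between -0.10 and 0.09 in the 5 comparisons. Gpx8, a glutathione peroxidase family member of the endoplasmic reticulum, averaged 8.59 ± 0.13 in AIRmax pristane and 8.79 ± 0.15 in AIRmax control footpads, and 8.35 ± 0.26 in AIRmin pristane and 9.13 ± 0.19 in AIRmin control footpads. Its AIRmin groups did not overlap (-0.79, adjusted p = 0.0782), nor did those of Gpx7, of the same compartment (-0.49, adjusted p = 0.0946). The pristane difference of Gpx7 was 0.82 greater in AIRmax than in AIRmin (adjusted p = 0.0847), the same sign as that of Sod3. Gpx3, the secreted peroxidase, was lower without overlap in AIRmax pristane than in AIRmax control footpads (-0.88, adjusted p = 0.141), as was Cat. Gpx1, the cytosolic peroxidase, was higher without overlap in AIRmax control than in AIRmin control footpads (0.59, adjusted p = 0.152).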

How the data were processed

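Total RNA of 16 footpads was hybridised to Affymetrix Mouse Gene 1.0 ST arrays. The deposited log2 signals per probe set were normalised by the authors. Sample titles name RMA gene-level output, the submitters' notes name MAS5, and no version is given in the sources used here. Values were used as deposited. Array medians were 5.435 to 5.53, and no detection call was used. The table held 35556 probe sets. Those annotated to a single gene (21789) were kept and those with several genes (1621) or none (12146) left out, and a gene with more than 1 (999 genes) was read by its brightest, giving 19938 genes.

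Pairs of groups were fitted on their 8 arrays with limma 3.58.1 (lmFit, eBayes) in R 4.3.3, and the difference of responses on all 16. Benjamini-Hochberg adjustment ran over all genes, with a threshold of 0.05, and intervals are 95% and unadjusted. SAM was written anew for this work (all relabellings, false discovery rate 0.05). Both tests were checked on simulated data. The members, lists and alternatives were chosen with earlier results of these data known. Named genes were all members, the 4 genes of each pathway list with the smallest p, the 2 genes of each marker list with the highest mean, and the 5 genes most correlated with Cybb and with Sod3. Marker genes that passed, Lum among them, and those printed beside them for contrast were named after their values were seen. The number of arrays, 4 per group, limits the precision, since array signals have no counted depth. Promoter windows came from RefSeq (GRCm38.p6).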

Additional observations from a re-analysis of the deposited data

Results flagged for a closer look

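Of 36 values of a gene in a group that were examined for a sample far from the other 3, 4 stood out by Dixon's test, where chance gives about 1 in 20. In AIRmax controls array 108 stood above the other 3 for Cyba (10.85, nearest other 9.84), Ncf1 (10.9, nearest 9.3) and Ncf4 (10.02, nearest 8.18). This array also had the highest granulocyte precursor score of the 16 (2.30), and the part of that in the values was not tested. The flags on array 108 came from the same mouse and from genes that ran together. They are therefore not independent, and the count of flags cannot be set against the chance rate. In AIRmax pristane footpads array 110 stood above the others for Sod3 (7.13, nearest 6.93), with the gap taking 0.941 of the range of the group. Sod3 also ran in opposite directions in the lines, with all 4 AIRmax pristane arrays above their controls and all 4 AIRmin pristane arrays below theirs. The difference of the responses was 1.0153 on the log2 scale, and its test did not pass over all genes (adjusted p = 0.0871 from limma).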

How the results depend on the processing

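Alternatives were another probe set rule, a filter on dim genes, standardised or quantile normalised arrays, all 16 arrays in 1 fit, sex, the granulocyte precursor score or the skeletal muscle score as a covariate, a trended robust prior, SAM, and each array left out. The fit without arrays 108, 109, 112 and 118 together was chosen after seeing the data. SAM and the fit of all 16 arrays apply to pairs of groups, not to the difference of responses. No paired analysis was possible because the arrays carry unique numbers and the groups share no replicate number.

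The number of members called in AIRmax with pristane was 2 with all 16 arrays, 2 with the precursor covariate, 2 by SAM and 1 (Cat, adjusted p = 0.0412) without the 4 arrays, against 0 as reported. In AIRmin it was 1 with the precursor covariate (Cybb) and 1 by SAM (Sod3), against 0. Between the pristane lines it was 2 with all 16 arrays, 2 with the precursor covariate (Cyba, adjusted p = 0.0248, and Sod3), 2 by SAM, 0 with the muscle covariate and 0 without the 4 arrays, against 1, and 0 to 1 with single arrays left out. The muscle score did not overlap between the pristane lines, so the fit with it could not separate score from line. Between the control lines the number of members called was 0 in every fit. For the difference of responses it was 3 with the precursor covariate (Cyba 0.71, Ncf4 0.91 and Sod3 0.97, adjusted p of 0.0304 to 0.0386), against 0, and 0 to 1 with single arrays left out, the 1 being Sod3 without array 106 (1.17, adjusted p = 0.0331). Counts over all 19938 genes moved too. In AIRmax 338 passed with all 16 arrays, 473 with the precursor covariate, 744 by SAM and 426 without the 4 arrays, against 56. In AIRmin 1114 passed with the precursor covariate and 399 by SAM, against 0. Between the pristane lines 1519 passed with all 16 arrays, 595 with the precursor covariate and 1004 by SAM, against 271. For the difference of responses 462 passed with the precursor covariate, against 34. The cause was not tested.

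Reversals concerned values that did not pass as reported. Without the 4 arrays the AIRmax log2 fold changes were -0.1994 for Cybb, -0.004 for Ncf1 and -0.0646 for Rac2, and in AIRmin -0.383 for Cybb, -0.2682 for Cyba, -0.1822 for Ncf1, -0.2697 for Ncf4 and -0.3691 for Rac2. With the precursor covariate they were, in AIRmin, -0.6703 for Cybb, -0.355 for Cyba, -0.3515 for Ncf1, -0.4463 for Ncf4 and -0.594 for Rac2, and between the control lines -0.0193 for Cybb, -0.0964 for Ncf1, -0.3747 for Ncf4, -0.0718 for Rac2 and 0.1287 for Sod2. The precursor score did not overlap between the control lines, so score and line could not be separated there. With the muscle covariate Sod2 was -0.02 in AIRmin, and the difference of responses was -0.5595 for Cybb, -0.0994 for Cyba, -0.5486 for Ncf1, -0.3135 for Ncf4 and -0.5426 for Rac2. Sod1 between the control lines was -0.009 after quantile normalisation and -0.0022 array SDs after standardisation.

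With single arrays left out the AIRmax value of Cybb ran from -0.017 to 0.6063. In AIRmin the ranges were -0.383 to 0.6135 for Cybb, -0.2682 to 0.3056 for Cyba, -0.1822 to 0.698 for Ncf1, -0.2697 to 0.6854 for Ncf4, -0.3691 to 0.6441 for Rac2 and -0.0545 to 0.0427 for Sod2. Sod1 ran from -0.1128 to 0.0735 between the pristane lines and from -0.0319 to 0.0826 between the control lines. For the difference of responses the ranges were -0.3587 to 0.6379 for Cybb, -0.2649 to 0.6154 for Ncf1, -0.1151 to 0.84 for Ncf4, -0.3603 to 0.653 for Rac2 and -0.1365 to 0.0498 for Sod1. Sod3, and Sod2 in AIRmax and between the pristane lines, and Cat in AIRmax kept their direction in every fit.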
